A study of Mus musculus with 6 samples.

Results

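The mitochondrial genome of the mouse encodes 7 subunits of complex I, the NADH dehydrogenase that passes electrons from NADH to ubiquinone at the head of the respiratory chain. Their mRNAs (mt-Nd1, mt-Nd2, mt-Nd3, mt-Nd4l, mt-Nd4, mt-Nd5 and mt-Nd6) were followed here in RNA from extracellular vesicles (EVs). They were taken as the 7 protein-coding genes whose symbols begin with mt-Nd, of 13 protein-coding genes of the mitochondrial genome and 47729 genes in the count tables. The EVs were released by WEHI-231 cells, a mouse splenic B cell lymphoma line. In the isotype group the cells received 10 µg/mL of an isotype control antibody together with 5 µg/mL of secondary antibody. In the anti-CD24 group they received 10 µg/mL of the rat antibody M1/69 against CD24 with the same secondary antibody at 5 µg/mL. Both stimulations lasted 1 h, both groups had 3 biological replicates of this single cell line, and EVs were recovered with the Vn96 peptide. CD24 is a GPI-linked surface protein of B cells, and the comparison asks whether its engagement changes the RNA that the EVs carry.

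Mitochondrial genes are read from the circular genome as long transcripts of each strand, which are then cut into single RNAs, mostly at the tRNAs that lie between the mRNAs. All of the mt-Nd genes except mt-Nd6 are transcribed with the rRNAs and the other mRNAs in the heavy-strand transcript, whereas mt-Nd6 comes from the opposite strand. mt-Nd4l and mt-Nd4 share 1 mRNA. The proteins form part of the membrane arm of complex I, where protons are pumped, and the catalytic subunits of its peripheral arm are made from nuclear genes.

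The first 30 bases of each mRNA are shown because the members differ in how they begin, with the first codon in capitals. The sequences and positions are those of GENCODE M21 for GRCm38, written as DNA from 5′ to 3′.
mt-Nd1: GTGttctttattaatatcctaacactcctc
mt-Nd2: ATAaatcctatcacccttgccatcatctac
mt-Nd3: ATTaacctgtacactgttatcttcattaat
mt-Nd4l: ATGccatctaccttcttcaacctcaccata
mt-Nd4: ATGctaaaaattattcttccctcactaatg
mt-Nd5: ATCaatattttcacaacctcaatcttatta
mt-Nd6: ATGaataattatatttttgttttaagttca

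The first codon was ATG in mt-Nd4l, mt-Nd4 and mt-Nd6 and another triplet in the other members. mt-Nd4 ended after a single T past its last full codon, and the others ended in TAA or TAG. The members lay at 2751-3707 (mt-Nd1, 957 bases), 3914-4951 (mt-Nd2, 1038 bases), 9459-9806 (mt-Nd3, 348 bases), 9877-10173 (mt-Nd4l, 297 bases), 10167-11544 (mt-Nd4, 1378 bases) and 11742-13565 (mt-Nd5, 1824 bases) of the plus strand of the mitochondrial chromosome. mt-Nd6, with 519 bases, lay at 13552-14070 of the minus strand. Each is annotated as 1 uninterrupted coding exon. In the order of the sequences above, their Ensembl identifiers are ENSMUSG00000064341, ENSMUSG00000064345, ENSMUSG00000064360, ENSMUSG00000065947, ENSMUSG00000064363, ENSMUSG00000064367 and ENSMUSG00000064368. G made up 28.1% of mt-Nd6 and between 7.996% (mt-Nd2) and 11.6% (mt-Nd1) of the other members, while C made up 5.97% of mt-Nd6 and 22.1% (mt-Nd3) to 29.97% (mt-Nd4l) of the others.

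Where genes of the same strand overlap, the authors' counting set aside a read that touched both. The last bases of mt-Nd4l and the first of mt-Nd4 are shown with the 7 shared bases in capitals.
mt-Nd4l, last 30 bases: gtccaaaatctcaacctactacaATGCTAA
mt-Nd4, first 30 bases: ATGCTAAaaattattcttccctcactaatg
mt-Nd5 and mt-Nd6 overlap by 14 bases at their 3′ ends, on opposite strands, and these bases (in capitals) are the reverse complement of each other.
mt-Nd5, last 30 bases: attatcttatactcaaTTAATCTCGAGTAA
mt-Nd6, last 30 bases: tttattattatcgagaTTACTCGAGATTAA
The counting was stranded, so reads of these genes are told apart by strand. On the plus strand mt-Ti shares the last 2 bases of mt-Nd1 and mt-Tw the last 2 of mt-Nd2, while mt-Tm ends at the base before mt-Nd2.

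The 6 libraries held 166129 to 794185 counts on genes and 2436 to 10659 counts on protein-coding genes, and the mt-Nd genes had 218 to 1117 counts per library. At this depth a count of 3 corresponds to 3.78 to 18.1 counts per 1000000 counts on genes (CPM). Every isotype library carried the same barcode and every anti-CD24 library another, so barcode and stimulation cannot be told apart. The libraries of 1 replicate number shared a sequencing run. Of 12 B cell markers, 10 had a count in some library, Ptprc was among those at 0, and the list summed to 0 to 24 counts per library, so the label of the cells could hardly be checked in this RNA. Markers of T cells were at 0 (5 of 5 genes). Those of myeloid cells summed to at most 4 counts in a library and those of fibroblasts to at most 26, in anti-CD24 replicate 1. Haemoglobin genes summed to 99 counts in the same library and to 0 in the other libraries. The B cell list summed to at most 15 counts in an anti-CD24 library, fewer than either of these in anti-CD24 replicate 1. The part of these RNAs in the results was not tested.

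Several members have near-identical nuclear copies, which bear on what the counts of each can mean. At 90% identity over at least 30 bases, 5 of the 6 members other than mt-Nd1 matched 1 annotated pseudogene each, mt-Nd5 matched a pair, and mt-Nd1 matched none. The closest copies, Gm28438, Gm10222 and Gm28439, lie next to each other on chromosome 1 between 24611535 and 24613119. Gm10222 matched mt-Nd4l in all of 294 aligned bases. The counts of mt-Nd4l were 29, 58 and 62 in isotype replicates 1, 2 and 3 and 36, 114 and 105 in the anti-CD24 replicates, and those of Gm10222 were 30, 58 and 62 and 39, 114 and 105. The values were equal in 4 of 6 libraries and differed by at most 3 counts in the other pair, and whether the same reads were counted on both was not tested. No read in any file was listed as aligned to more than 1 place, and the level of mt-Nd4l is uncertain for this reason.

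mt-Nd3 was the exception among the members. Its copy Gm28438 matched it in 344 of 345 bases, with the single substitution T3C, counted from the first base of mt-Nd3, whose base is given first. The first 30 bases of both are shown with that base in capitals, since it falls in the first codon.
mt-Nd3: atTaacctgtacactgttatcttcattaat
Gm28438: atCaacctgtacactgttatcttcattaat
The counts of mt-Nd3 were 0, 3 and 3 in the isotype replicates and 2, 9 and 13 in the anti-CD24 replicates. Gm28438 had 35, 19 and 19 counts in the isotype replicates and 32, 97 and 102 in the anti-CD24 replicates. Over the 6 libraries the copy had 304 counts and the mitochondrial gene 30, a ratio of 10.1. Whether reads of mt-Nd3 were placed on Gm28438 was not tested, and the level of mt-Nd3 is therefore uncertain.

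Gm28439 matches the first 876 of the 1378 bases of mt-Nd4 without a mismatch. It had 209 counts against 436 on mt-Nd4, 47.9% of them, while the matched stretch is 63.6% of the length of mt-Nd4. The copies of the other members were further from them in sequence and in count. Gm13339, on chromosome 2, matched 510 bases of mt-Nd2 at 96.7% identity and had 93 counts against 794. The copies of mt-Nd5 (Gm11407 and Gm4076) had 0 and 20 counts against 709, and that of mt-Nd6 (Gm11408) had 1 count against 89.

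**Figure D1:**
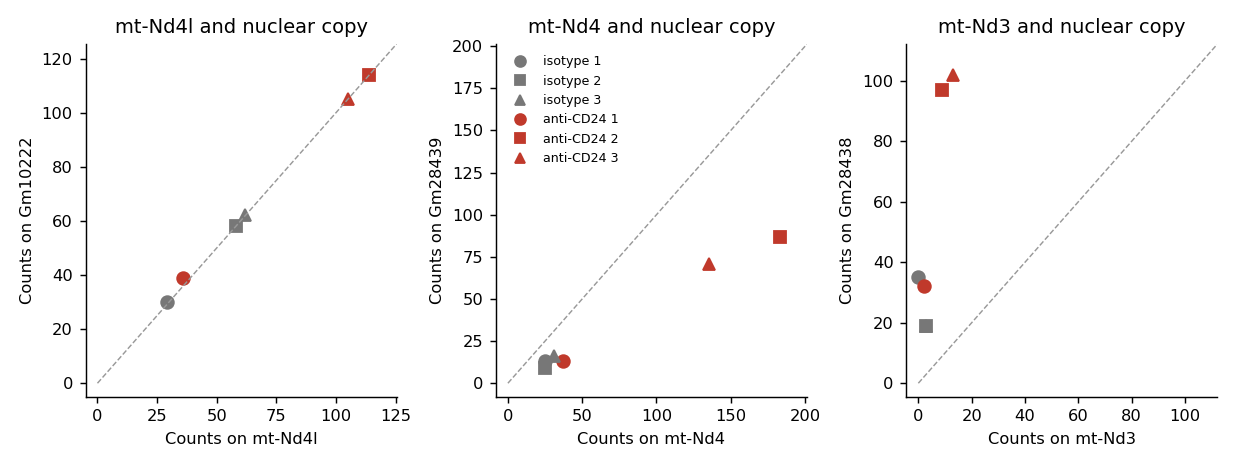
Counts on mt-Nd4l, mt-Nd4 and mt-Nd3 (x axis) against counts on the nuclear copy of each (y axis) in the 6 libraries; the dashed line marks equal counts. The mt-Nd4l points lie on the line in 4 libraries and at most 3 counts above it in the others, the mt-Nd4 points below it and the mt-Nd3 points above it, with isotype replicates 2 and 3 at the same place (3 and 19 counts) in the last panel.

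In none of the 7 genes did the difference between isotype-treated and anti-CD24 stimulated samples pass the test, although 6 of 7 estimates were positive. mt-Nd1, a membrane subunit next to the quinone site, had 36, 35 and 38 counts in isotype replicates 1, 2 and 3 and 42, 182 and 302 in the anti-CD24 replicates. Scaled to the library total, these were 112, 211 and 49.8 CPM and 68.8, 247 and 380 CPM, so anti-CD24 replicates 2 and 3 lay above all isotype replicates and replicate 1 lay below isotype replicates 1 and 2. Its log2 fold change was 1.65 (standard error 0.81), the highest of the 7, with an adjusted p of 0.55 from edgeR's quasi-likelihood test.

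mt-Nd2, another proton-pumping subunit, had 66, 44 and 67 counts in the isotype replicates and 58, 224 and 335 in the anti-CD24 replicates. In CPM these were 205, 265 and 87.7 after isotype and 95.04, 304 and 422 after anti-CD24, again with replicate 1 low and replicates 2 and 3 high in the anti-CD24 group. The log2 fold change was 1.23 (standard error 0.78).

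mt-Nd5 and mt-Nd4, the large subunits at the far end of the membrane arm that resemble antiporters, had estimates of 0.73 and 1.32. mt-Nd5 had 59, 54 and 71 counts after isotype and 80, 248 and 197 after anti-CD24, which is 183, 325 and 93.0 CPM against 131, 337 and 248 CPM. Anti-CD24 replicate 2 was the highest library and isotype replicate 3 the lowest, with the others interleaved, and the log2 fold change was 0.73 (standard error 0.79). mt-Nd4 had 25, 25 and 31 counts and then 37, 183 and 135 counts, with 77.5, 150 and 40.6 CPM against 60.6, 248 and 170 CPM. Its anti-CD24 replicates 2 and 3 lay above the isotype replicates and replicate 1 among them. The log2 fold change was 1.32 (standard error 0.83).

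The small subunits mt-Nd4l, mt-Nd3 and mt-Nd6 lie in the membrane arm between the quinone site and the antiporter-like subunits. mt-Nd4l, with 89.95, 349 and 81.2 CPM after isotype and 59.0, 155 and 132 CPM after anti-CD24, had its highest value in isotype replicate 2. It was the single member with a negative log2 fold change, -0.028 (standard error 0.81). mt-Nd3 had 0, 18.1 and 3.93 CPM and then 3.28, 12.2 and 16.4 CPM, resting on 13 counts or fewer in each library, and a log2 fold change of 1.35 (standard error 1.27). mt-Nd6 had 3, 6 and 6 counts after isotype and 11, 33 and 30 after anti-CD24, or 9.31, 36.1 and 7.86 CPM against 18.02, 44.8 and 37.8 CPM. Its log2 fold change was 1.51 (standard error 1.06), and its isotype replicate 2 lay above anti-CD24 replicate 1.

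**Figure D2:**
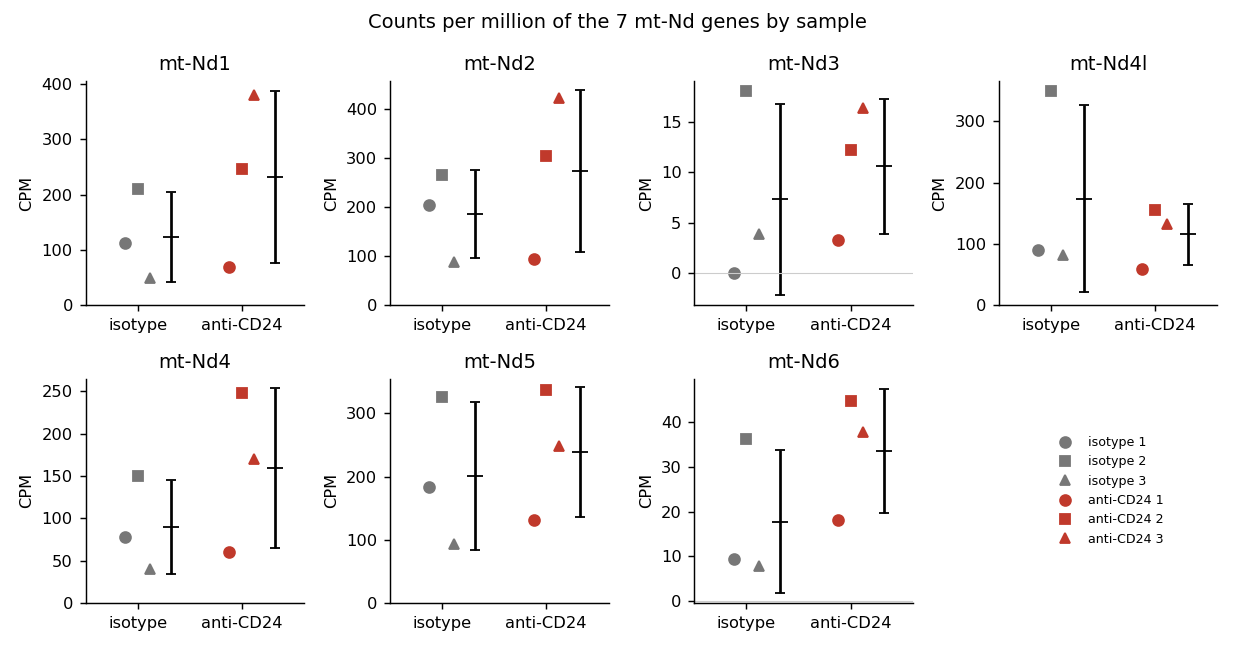
CPM (y axis) of each mt-Nd gene in the isotype (grey) and anti-CD24 (red) libraries; circles, squares and triangles are replicates 1, 2 and 3, and the bars show the mean ± SD of 3 libraries. The groups overlap in all 7 panels, and the square of the isotype group stands high beside the other isotype libraries in each.

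Over the 1501 genes with at least 1.0 CPM in 3 or more libraries, 0 of the 7 members had an adjusted p under 0.05 in edgeR's quasi-likelihood test, against 0.0666% of all genes tested. DESeq2 called 0 members and 0 of the 1501 genes, and edgeR's exact test 0 members and 1 of the 1501. At an unadjusted p under 0.05 in the edgeR fit there was 1 of the 7 members, mt-Nd1, and 119 of the 1501 genes. The adjusted p of the members ran from 0.55 to 0.98 in the edgeR quasi-likelihood fit. The 95% normal interval of the log2 fold change was 0.068 to 3.23 for mt-Nd1, -1.61 to 1.56 for mt-Nd4l and -0.81 to 2.26 for mt-Nd5, so that changes of several fold in either direction lay within the interval of mt-Nd4l. The groups were free of overlap in CPM in 0 of the 7 members, against 5.73% of the genes tested that were higher throughout after anti-CD24 and 6.53% that were lower. In pooled EVs, more vesicles with these RNAs and more RNA per vesicle cannot be told apart.

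Of the 7 members, 6 had a positive log2 fold change, against 44.7% of the genes tested. This was not particular to the members, since 5 of the 6 other mitochondrial mRNAs were positive too, with a median of 0.91. All members except mt-Nd6 come from the heavy-strand transcript, so their signs are not separate results. The median of the members was 1.32 and that of all genes -0.29, on the log2 scale of the TMM-scaled fit. The size of this distance depended on single libraries. With 1 sample left out it ran from 0.36 (without anti-CD24 replicate 3) to 2.05 (without anti-CD24 replicate 1). Without anti-CD24 replicate 3 the median of the members was 0.22 and that of all genes -0.14, and without isotype replicate 3 they were 0.58 and -0.19. Leaving out anti-CD24 replicate 1 raised the members' median to 1.95, and mt-Nd1 then passed, with a log2 fold change of 2.23 and an adjusted p of 0.037 from edgeR's quasi-likelihood test. In that fit 4.2% of 1119 genes were called, 4.11% higher and 0.0894% lower after anti-CD24. With the replicate number as a block, 0 members passed, 0 had an unadjusted p under 0.05, and the smallest adjusted p was 0.99 from the same test. Of all 1501 genes in the blocked fit, 0 passed and 20 had an unadjusted p under 0.05.

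The scaling weighed on these values as well. The TMM factor, which edgeR multiplies into the library size, was 0.51 for anti-CD24 replicate 3 and 0.87 to 1.37 for the other libraries, so the values of the former were raised most. With library size alone, the log2 fold changes were 0.92 for mt-Nd1, 0.56 for mt-Nd2, 0.80 for mt-Nd3, -0.57 for mt-Nd4l, 0.85 for mt-Nd4, 0.26 for mt-Nd5 and 1.02 for mt-Nd6. The median of all genes moved from -0.29 to -0.35 there, and to -0.88 with relative log expression (RLE) size factors in the same test. Relative to that median, the members' median stood 1.61 higher with TMM, 1.52 with the RLE factors and 1.15 with library size alone. The direction turned when genes were kept only with at least 10 counts in every library, which left 134 genes and 5 members. There 1 of the 5 members had a positive log2 fold change, and their median was -0.23 against 0.011 for all genes.

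**Figure D3:**
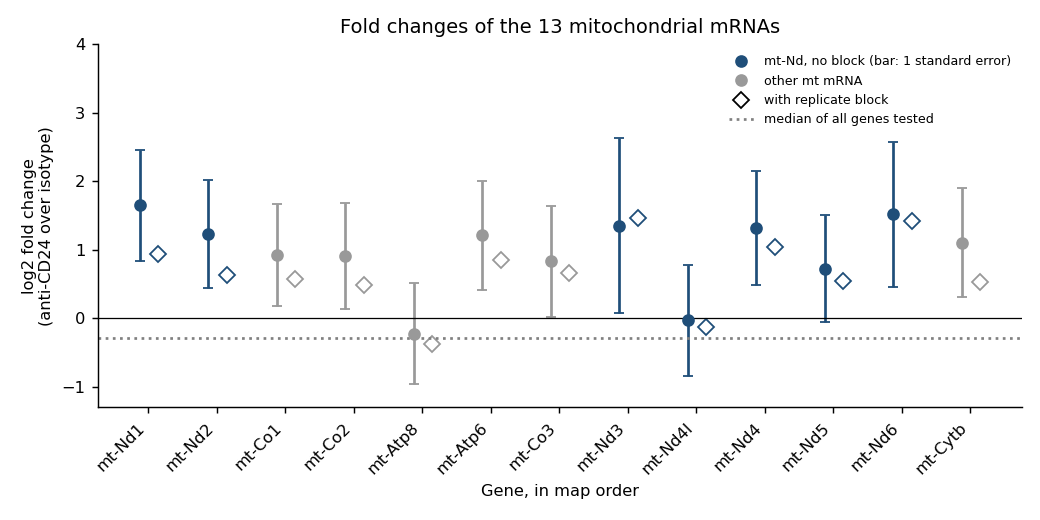
log2 fold change (y axis, anti-CD24 over isotype, TMM-scaled) of the 13 mitochondrial mRNAs in map order, the mt-Nd genes in blue and the others in grey; filled points with bars are the estimate ± 1 standard error, open diamonds the fit with the replicate block and the dotted line the median of all genes tested, -0.29. mt-Nd4l and mt-Atp8 stand apart at or below 0, with -0.028 and -0.22.

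Within the replicate pairs, the members differed in direction in pairs 1 and 2 and had the same direction in pair 3. On the log2(CPM + 1) scale, 2 of 7 members were higher after anti-CD24 in pair 1, against 48.4% of the genes tested. In pair 2 there were 5 of 7, against 59.3%, and in pair 3 all 7, against 24.8%. In pair 3, 1667 genes had a count in the anti-CD24 library and 3967 in the isotype library, at 794185 and 763737 counts on genes. How far this difference lowered the 24.8% was not tested. The differences ran from -1.099 to 2.10 in pair 1, from -1.17 to 0.72 in pair 2 and from 0.70 to 2.91 in pair 3, where mt-Nd1 had the highest value. mt-Nd6 was the member with a positive difference in every pair (0.88, 0.30 and 2.13), resting on 3, 6 and 6 counts in the isotype replicates. The share of all genes tested with this trait was not computed.

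As a share of the protein-coding counts, the mt-Nd genes together held 3.95% (95% Wilson interval 3.46% to 4.49%), 9.24% (8.15% to 10.5%) and 2.61% (2.32% to 2.93%) in isotype replicates 1, 2 and 3. In the anti-CD24 replicates they held 5.03% (4.48% to 5.66%), 9.54% (8.99% to 10.1%) and 19.6% (18.6% to 20.7%). These intervals cover counting error only. The mean was 5.26 ± 3.51% after isotype and 11.4 ± 7.5% after anti-CD24 (SD, n = 3 each). The difference was 1.09, 0.31 and 17.0 percentage points in pairs 1, 2 and 3, so the distance between the means came mostly from pair 3. The distance depended on the denominator. On the log2 scale it was 1.104 for the protein-coding counts and 1.44 when the 13 mitochondrial mRNAs were taken out of them. Of all counts other than rRNA and ribozyme genes, the mt-Nd genes held 0.88 ± 0.52% after isotype and 0.89 ± 0.48% after anti-CD24 (SD, n = 3 each), and the pairs differed by -0.37, -0.55 and 0.97 percentage points. Of all counts on genes they held 0.080 ± 0.051% and 0.11 ± 0.05%. The protein-coding counts averaged 6206 and the non-rRNA counts 37455 after isotype, against 7126 and 86030 after anti-CD24. By these means the protein-coding counts were a smaller part of the non-rRNA counts after anti-CD24. The authors reported that protein-coding transcripts fell after CD24 stimulation.

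Set against the other mitochondrial mRNAs, the mt-Nd share was steadier. It was 30.5%, 27.8% and 25.0% of the counts on the 13 mRNAs in isotype replicates 1, 2 and 3 and 34.1%, 28.8% and 36.0% in the anti-CD24 replicates. The mean was 27.8 ± 2.72% and 32.97 ± 3.73% (SD, n = 3 each), the groups overlapped, and the pairs differed by 3.61, 1.02 and 10.95 percentage points. A large part of the denominator was mt-Atp8, with 171, 261 and 261 counts after isotype and 119, 671 and 369 after anti-CD24. The share without mt-Atp8 was not computed, so these differences do not show a shift toward complex I against each of the other mRNAs. The other 6 mRNAs, which encode subunits of complexes III, IV and V, had log2 fold changes from -0.22 (mt-Atp8) to 1.21 (mt-Atp6). Of these, 0 of 6 passed edgeR's quasi-likelihood test, 0 of 6 had an unadjusted p under 0.05, and the smallest adjusted p was 0.55.

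Per length, the members stood in the same order in every library. Their levels in CPM per kb, as the mean ± SD of 6 libraries, were 486 ± 358 for mt-Nd4l, 221 ± 123.8 for mt-Nd2, 186 ± 132 for mt-Nd1, 120.3 ± 55.3 for mt-Nd5, 90.4 ± 57.5 for mt-Nd4, 49.4 ± 30.7 for mt-Nd6 and 25.8 ± 21.7 for mt-Nd3. Isotype replicate 2 had the highest level of mt-Nd4l and mt-Nd3, anti-CD24 replicate 3 that of mt-Nd1 and mt-Nd2, and anti-CD24 replicate 2 that of mt-Nd4, mt-Nd5 and mt-Nd6. Compared within each library, with 0.5 added to each count, every gene lay above the next in 6 of 6 libraries. The order was read from these same libraries, so it is a description and no test of it is given. The mean log2 ratio of neighbours was 1.104 ± 0.746 for mt-Nd4l over mt-Nd2, 0.37 ± 0.29 for mt-Nd2 over mt-Nd1, 0.44 ± 0.57 for mt-Nd1 over mt-Nd5, 0.53 ± 0.35 for mt-Nd5 over mt-Nd4, 0.83 ± 0.40 for mt-Nd4 over mt-Nd6 and 1.05 ± 0.78 for mt-Nd6 over mt-Nd3 (SD, n = 6). For mt-Nd1 over mt-Nd5 the spread between libraries was larger than the mean. mt-Nd1 and mt-Nd5 were closest in anti-CD24 replicate 1, at a ratio of 1.01, and furthest apart in anti-CD24 replicate 3, at 2.92. The last place of mt-Nd3 held only for its own counts. With the larger of the counts of the member and its nuclear copy, an alternative added once the values were known, mt-Nd3 came second after mt-Nd4l.

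**Figure D4:**
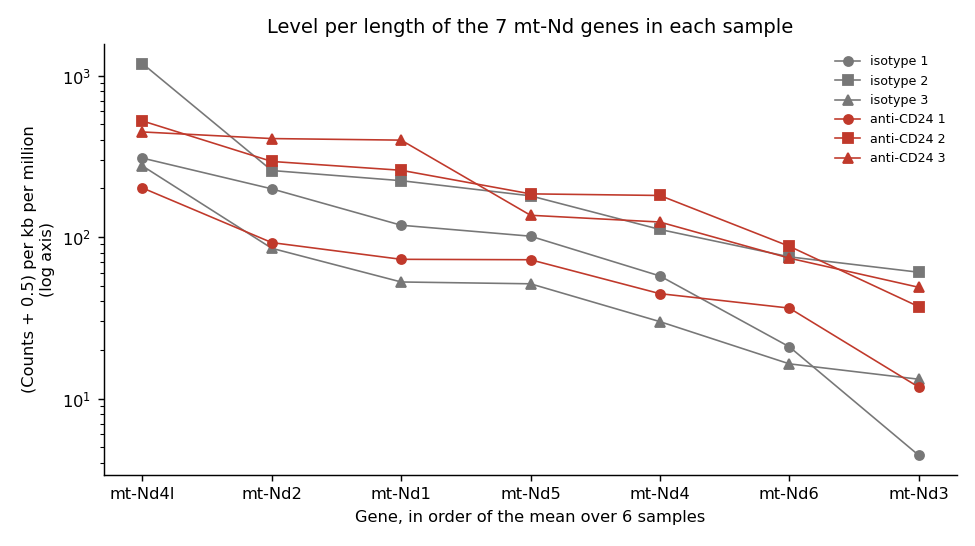
Level of the 7 mt-Nd genes in each library as CPM per kb with 0.5 added to each count (y axis, log scale), with the genes in order of the mean over 6 libraries (x axis) and 1 line per library. Every line falls from mt-Nd4l to mt-Nd3, and the lines of both groups are interleaved.

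Of the counts on the 7 genes, unadjusted for length, mt-Nd5 took 24.9 ± 4.1%, mt-Nd2 24.7 ± 4.4%, mt-Nd1 17.8 ± 4.8%, mt-Nd4l 15.97 ± 6.52%, mt-Nd4 13.03 ± 2.84%, mt-Nd6 2.72 ± 0.95% and mt-Nd3 0.87 ± 0.47% (SD, n = 6). Anti-CD24 replicate 3 stood apart in this composition. There mt-Nd1 took 27.04% and mt-Nd5 17.6%, whereas in the other libraries mt-Nd1 took 13.7% to 18.3% and mt-Nd5 24% to 30.1%. mt-Nd4l ranged most, from 9.40% in anti-CD24 replicate 3 to 25.8% in isotype replicate 2.

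The bicistronic mRNA of mt-Nd4l and mt-Nd4 was counted unevenly over its reading frames. Per kb, mt-Nd4l had 5.37, 10.6 and 9.21 times the counts of mt-Nd4 in isotype replicates 1, 2 and 3 and 4.52, 2.90 and 3.61 times in the anti-CD24 replicates. The ratio was above 1 in every library, and the anti-CD24 libraries lay below the isotype libraries without overlap. The log2 ratio was 3.01 after isotype and 1.85 after anti-CD24, a difference of -1.16 with a spread within groups of 0.43 (SD). The exact permutation test of 3 against 3 libraries (two-sided) gave p = 0.1, the smallest it can give, and 0.17 after adjustment over 5 such ratios, which were chosen after the values were seen. In pairs 1, 2 and 3 the log2 difference was -0.25, -1.88 and -1.35.

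The other bicistronic mRNA of the genome, of mt-Atp8 and mt-Atp6 of complex V, was counted in a similar way. Per kb, mt-Atp8 had 11.6, 20.5 and 17.3 times the counts of mt-Atp6 after isotype and 7.60, 8.17 and 5.26 times after anti-CD24, with a log2 difference of -1.22 (exact permutation test, p = 0.1, and 0.17 adjusted). In both mRNAs the short upstream frame had the higher count per kb. The level of mt-Atp6 is uncertain, because its nuclear copy Gm10925 matched 678 of its 681 bases without a mismatch. Gm10925 had 113, 96 and 175 counts in the isotype replicates and 105, 440 and 426 in the anti-CD24 replicates. mt-Atp6 had 49, 42 and 50 and then 52, 274 and 234. Whether reads of mt-Atp6 were placed on the copy was not tested. mt-Atp8 ends at 7969 and mt-Atp6 begins at 7927, so reads that touched both were set aside. The 3 ratios of other members gave p from 0.1 to 0.5 (exact permutation test). Of these, mt-Nd5 over mt-Nd6, which lie on opposite strands, was 4.84, 2.39 and 3.13 after isotype and 1.99, 2.11 and 1.84 after anti-CD24. The log2 difference was -0.74 (exact permutation test, p = 0.1, and 0.17 adjusted). For the summed 6 heavy-strand members over mt-Nd6, the ratio per kb was 5.47, 3.00 and 3.72 and then 1.97, 2.55 and 3.17. There anti-CD24 replicate 3 lay above isotype replicate 2, and the log2 difference was -0.65. The ratio with the summed members was not tested. In both ratios the isotype values rest on 3 to 6 counts of mt-Nd6.

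**Figure D5:**
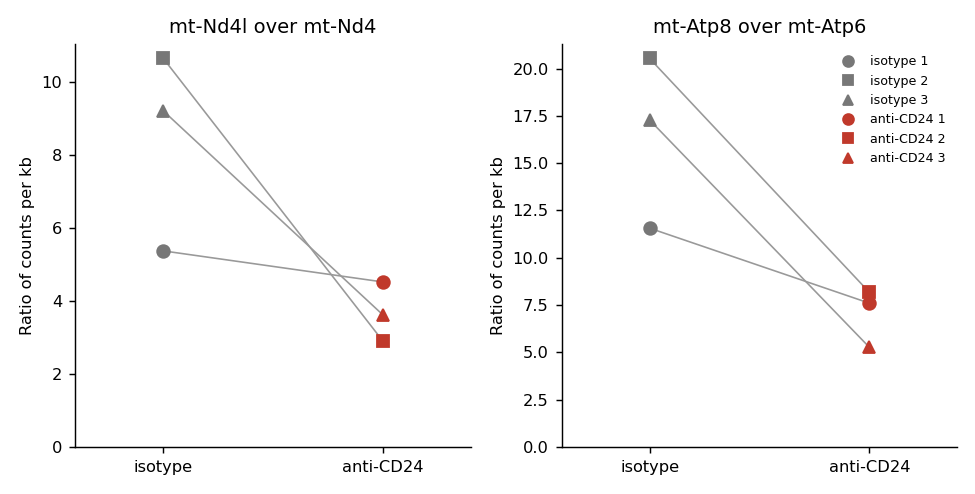
Ratio of counts per kb (y axis, from 0) of mt-Nd4l over mt-Nd4 and of mt-Atp8 over mt-Atp6 in the isotype and anti-CD24 libraries, with lines joining the libraries of 1 replicate number. Both ratios are lower after anti-CD24 in each pair, from 5.37 to 4.52, 10.6 to 2.90 and 9.21 to 3.61 for mt-Nd4l over mt-Nd4.

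The genes that flank the members were counted at very different levels. mt-Tm, the methionine tRNA that ends where mt-Nd2 begins, had 1079 to 11515 counts per library against 44 to 335 on mt-Nd2, or 206 to 772 times as many per kb. mt-Tl1, the leucine tRNA at the start of mt-Nd1, had 2 to 54 counts, fewer than mt-Nd1 in every library. mt-Tw after mt-Nd2 and mt-Tl2 before mt-Nd5 had at most 4 and 7 counts. mt-Te, the glutamate tRNA upstream of mt-Nd6 on the same strand, had 13 to 786 counts against 3 to 33 on mt-Nd6. The 16S rRNA mt-Rnr2, separated from mt-Nd1 by mt-Tl1 alone, was counted 14.9 to 213 times as densely as mt-Nd1. Its ratio was lowest in anti-CD24 replicate 3 and highest in isotype replicate 3, the libraries of 1 run. Reads that spanned a member and a neighbour on its strand were not assigned to either. The files list 0.98% to 2.71% of the aligned reads as ambiguous, over all genes.

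The genes whose profile over the 6 libraries was most like that of the members were mitochondrial or copies of mitochondrial genes. The likeness was taken as the root mean square difference of centred log2 CPM from the sum of the members, over 129 other genes with at least 10 counts in every library. mt-Atp6 was nearest, at 0.21, followed by Gm28661 and mt-Co2 at 0.24 and by Gm29216 and Gm10925 at 0.25, against a median of 0.75. Gm28661, Gm29216 and Gm10925 are nuclear pseudogenes that match mt-Co2, mt-Co1 and mt-Atp6. Gm28661 matched mt-Co2 in all 681 aligned bases and had the same count in 5 of 6 libraries. The places of Gm28661 and mt-Co2 thus rest on nearly the same values and are not separate likenesses. In the profile of the members themselves, anti-CD24 replicate 3 and both libraries of replicate 2 stood 0.74 to 0.80 above the mean on the log2 scale. Isotype replicate 1 stood at -0.25, anti-CD24 replicate 1 at -0.89 and isotype replicate 3 at -1.15.

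The nuclear partners of the members were scarcely present. Of 37 nuclear genes for complex I subunits, 36 were in the tables, 14 had a count in some library, 0 had one in every library, and 0 passed the filter for testing. Together they had 0 to 15 counts per library, whereas the 7 mitochondrial genes had 218 to 1117. Of 15 complex I assembly factors in the tables, 2 had a count, and of 18 genes for mitochondrial transcription and RNA processing, 4 did, with at most 5 counts in a library and none tested.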

How the data were processed

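RNA was sequenced from the EVs of 3 isotype and 3 anti-CD24 samples on an IonTorrent PGM, without RNA fragmentation. Per the methods, trimming was by the FASTX tools, alignment to GRCm38 by tmap, and counting by htseq-count over exons of Ensembl genes in stranded union mode (HTSeq 0.5.4p5 in the submitters' processing notes). The authors deposited raw counts per gene. The 5 summary lines of each file were left out. The members and gene lists were chosen with earlier results of these data known.

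Symbols, positions and sequences came from GENCODE M21 (GRCm38), and nuclear copies from BLAST 2.17.0 of the transcripts, which find no copy outside annotated transcripts. The quasi-likelihood test of edgeR 4.0.16 (R 4.3.3) was run on genes with at least 1.0 CPM in 3 or more samples, with TMM scaling, condition as the only factor and Benjamini-Hochberg adjustment over 1501 genes. Standard errors were derived from the estimate and its F statistic. The fit was run on simulated counts with changes far larger than the members' estimates, so that run does not measure its power for changes of their size. DESeq2 1.42.0 and edgeR's exact test served as alternatives, as did other scalings and filters, the replicate block, the counts of nuclear copies added, and each sample left out. Other steps used Python 3.11.15, pandas 2.3.3 and numpy 2.4.6.

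Genes named are the members, other mitochondrial mRNAs, flanking genes, nuclear copies, and the 5 genes nearest in profile. Replicate numbers were taken to pair the samples because the run names show that the libraries of 1 number shared a sequencing run. The deviations of paired samples from their group means correlated at -0.030, -0.024 and -0.11 over 1501 genes, which are not independent. Of the genes with a count in either of a pair of samples (at least 2617), 86 to 267 had equal counts, so no sample repeated another.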

Additional observations from a re-analysis of the deposited data

How the results depend on the processing

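The number of members with an adjusted p under 0.05 was 0 in the 10 other settings and 0 to 1 when a sample was left out. The 1 was mt-Nd1 without anti-CD24 replicate 1, at a log2 fold change of 2.23. Of all genes tested, 1 passed; the count was 0 with the replicate block, with DESeq2, with at least 10 counts in every sample, and without isotype replicate 1 or anti-CD24 replicate 2, 2 without a filter, 3 without anti-CD24 replicate 3 and 47 without anti-CD24 replicate 1. With the replicate block the log2 fold changes were 0.94 for mt-Nd1, 0.63 for mt-Nd2, 1.46 for mt-Nd3, -0.13 for mt-Nd4l, 1.04 for mt-Nd4, 0.55 for mt-Nd5 and 1.42 for mt-Nd6, and the block changed the call of none of these 7. The sign of mt-Nd4l turned with rRNA and ribozyme genes removed (0.44), with nuclear copies added (0.0058), without anti-CD24 replicate 1 (0.54) and without isotype replicate 2 (0.24). With at least 10 counts in every sample, where 134 genes were left and mt-Nd3 and mt-Nd6 fell out, mt-Nd2 was at -0.23, mt-Nd4 at -0.0051 and mt-Nd5 at -0.53, and mt-Nd2 was at -0.039 without anti-CD24 replicate 3. With a sample left out, mt-Nd2 ran from -0.039 to 1.80 and mt-Nd4l from -0.79 to 0.54. The cause was not tested. mt-Nd1, mt-Nd3 and mt-Nd6 kept a positive sign in each setting that tested them.

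The mean log2 share of the protein-coding counts was 1.104 higher after anti-CD24, and 0.60 to 1.61 higher with a sample left out. Of the non-rRNA counts it was 0.045 higher, and of the protein-coding counts without the 13 mitochondrial mRNAs 1.44. The log2 share of the 13 mitochondrial mRNAs was 0.25 higher, 0.17 to 0.34 with a sample left out, and 0.40 with mt-Rnr1 and mt-Rnr2 in the denominator. Taken as 3 replicate pairs, as the block does, these means were 1.104 ± 1.574 and 0.25 ± 0.25 (SD). The difference of the mt-Nd4l to mt-Nd4 ratio ran from -1.45 to -0.96 with a sample left out. The order per kb kept all 7 places in each condition alone, with shortened lengths and with any sample left out. It kept 4 places without division by length, 2 with nuclear copies added and 1 with the larger of member and copy. If the same reads were counted on a member and its copy, which was not tested, adding the copies counts them more than once. At 3 to 33 counts of mt-Nd6 and 0 to 13 of mt-Nd3, depth limits what these genes can show.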
